A study of Mus musculus with 8 samples.

Results

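The transcripts of 10 genes of inherited neuropathy were followed through the sciatic nerves of 4 mouse genotypes. They are Mtmr2, Sbf1, Sbf2, Fig4, Litaf, Sh3tc2, Fgd4, Ndrg1, Gdap1 and Mfn2, chosen by symbol as Charcot-Marie-Tooth disease genes that act outside the structure of the myelin sheath. All 10 symbols were found among the 23356 genes of the table, and 9 of them were among the 12530 genes that averaged 1 FPKM or more over the 8 libraries, which were tested. FPKM counts fragments per kilobase of transcript, scaled to library size. Gdap1 was below that level and is given as values.

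The double group carried HA-NRG1 type III/+ together with Q215X/+, and it is called the double here. HA-NRG1 type III/+ mice carried a transgene of type III neuregulin 1, a growth factor that axons present to Schwann cells. Q215X/+ mice carried the Q215X mutation on 1 allele. WT mice carried neither. The strain was F1 C57BL/6;FVB/N throughout and the age 30 days, with 2 libraries per genotype made from poly A selected RNA of whole sciatic nerve. The labels name neither the promoter of the transgene nor the sex of the animals. Nor do they state whether each library is its own animal, so the p-values rest on a spread that may be technical. The comparisons ask what the mutation, the transgene and their combination change in the nerve, and those with WT or with Q215X/+ on one side share those libraries.

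Charcot-Marie-Tooth disease is a group of inherited neuropathies in which myelin, axons or both degenerate. Mtmr2, Sbf1, Sbf2 and Fig4 act on phosphoinositides, the lipids that mark the compartments of the endosome and lysosome pathway, and Litaf and Sh3tc2 act on the sorting and recycling of receptors in the same pathway. Schwann cells depend on this traffic because the receptors for neuregulin 1 pass through it. Gdap1 and Mfn2 act on the shape and fusion of mitochondria.

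Each library was one of 2 sets, named 0 and 1 after the endings of the deposited columns, which the labels do not explain. Differences of set 1 minus set 0 correlated weakly between genotypes, at 0.118 to 0.304 over 6 pairs. Nrg1 was below the level for testing, at 0.428 FPKM on average in the double, 0.352 FPKM in HA-NRG1 type III/+, 0.258 FPKM in Q215X/+ and 0.184 FPKM in WT. By Xist and Ddx3y, 3 libraries were male, namely both of Q215X/+ and set 0 of HA-NRG1 type III/+, and 5 were female. All 10 Schwann cell markers were at 1 FPKM or more in each library, with none at 0. The 10 skeletal muscle markers summed to 1031 FPKM in set 1 of Q215X/+ and to between 8.37 and 85.4 FPKM in the other 7 libraries.

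Levels per length differed widely among the members. Ndrg1 was the most abundant, at 991 to 1300 FPKM over the 8 libraries, and in WT stood at or above the 99.8th percentile of genes with a value above 0. Sbf2, Mtmr2 and Litaf followed at 55.1 to 69.2, 43.3 to 61.0 and 41.4 to 47.7 FPKM, and Mtmr2 overlapped both others. Sh3tc2 lay at 25.5 to 32.9 FPKM, Mfn2 at 20.3 to 22.7 FPKM and Sbf1 at 13.5 to 15.9 FPKM, without overlap between those 3 genes. Fig4 and Fgd4 lay at 8.81 to 10.01 and 7.92 to 9.57 FPKM and overlapped, and Gdap1 was lowest at 0.0432 to 0.106 FPKM. The highest library was 1.12 times the lowest for Mfn2 and 1.41 times for Mtmr2, with the other 7 tested members between them, while the median over all tested genes was 1.34.

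**Figure D1:**
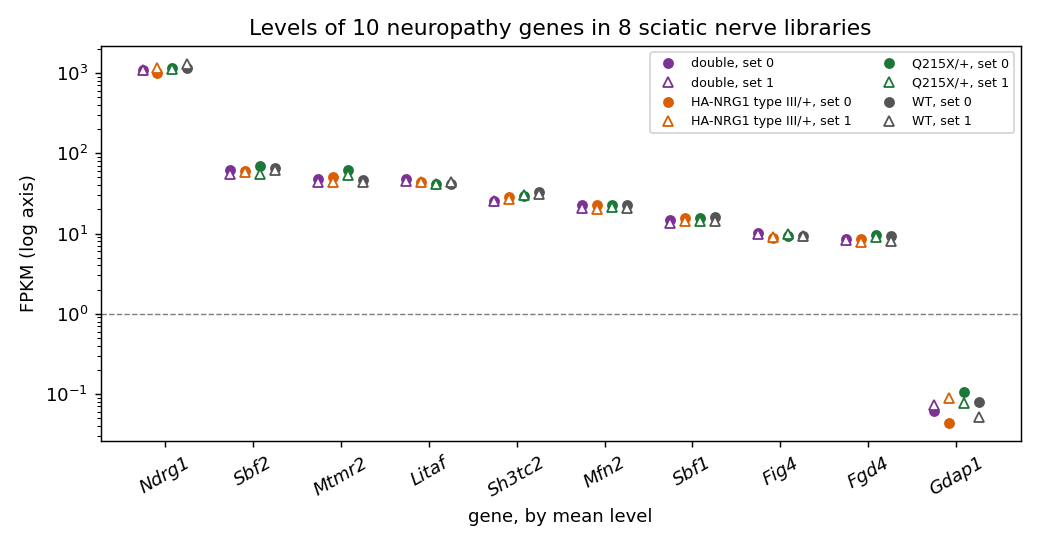
FPKM of the 10 genes on a log axis, 1 point per library, coloured by genotype. Ndrg1 sits highest at 991 to 1300 FPKM and Gdap1 lowest at 0.0432 to 0.106 FPKM, and within each gene the genotypes lie close together.

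Mtmr2, Fig4, Litaf and Sh3tc2 each had 1 genotype standing above all others, and no promoter was matched for Sh3tc2. The promoters of Mtmr2, Fig4 and Litaf are therefore shown. They are RefSeq windows of GRCm38.p6 from 250 bases before to 50 after the annotated start, 5′ to 3′ on the strand of the gene, at chr9:13748929-13749228 (plus strand), chr10:41303192-41303491 (minus strand) and chr16:10993072-10993371 (minus strand). The first start listed for each gene was used, which for Mtmr2 lies inside the annotated span of the gene. Capitals mark matches on either strand to GGGCGG, the box of SP factors, to CCAAT, and to CGCATGCG, the core of the palindrome bound by NRF1.
Mtmr2: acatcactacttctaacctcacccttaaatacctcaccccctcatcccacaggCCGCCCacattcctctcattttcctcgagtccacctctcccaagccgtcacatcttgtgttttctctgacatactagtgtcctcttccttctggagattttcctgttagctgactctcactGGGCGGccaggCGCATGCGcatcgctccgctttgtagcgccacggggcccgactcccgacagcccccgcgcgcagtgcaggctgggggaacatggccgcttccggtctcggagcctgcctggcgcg
Fig4: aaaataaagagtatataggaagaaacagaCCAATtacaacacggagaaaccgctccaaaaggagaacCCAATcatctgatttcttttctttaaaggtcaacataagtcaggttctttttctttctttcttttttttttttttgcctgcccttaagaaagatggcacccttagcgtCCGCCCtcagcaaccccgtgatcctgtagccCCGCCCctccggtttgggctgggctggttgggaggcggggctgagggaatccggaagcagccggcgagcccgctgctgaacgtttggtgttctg
Litaf: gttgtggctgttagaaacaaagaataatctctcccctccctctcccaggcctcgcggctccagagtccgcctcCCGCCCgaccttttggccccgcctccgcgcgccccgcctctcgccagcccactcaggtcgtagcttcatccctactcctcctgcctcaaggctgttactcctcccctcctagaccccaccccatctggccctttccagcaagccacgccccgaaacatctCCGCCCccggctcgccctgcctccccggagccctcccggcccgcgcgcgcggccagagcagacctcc

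A promoter was matched for 7 of the 10 members, all but Sh3tc2, Ndrg1 and Gdap1. The same letters were searched on both strands of all 27025 promoters of this length. GGGCGG was found in 7 of the 7 members' promoters and in 35.9% of all promoters. CCAAT was found in 3 of the 7, those of Sbf1, Fig4 and Fgd4, and in 37.9% of all. CGCATGCG was found in the promoter of Mtmr2 alone among the 7 and in 1.91% of all, and it was searched for after the sequence had been read. GCGTGGGCG, the site of EGR factors, which include the myelination factor Egr2, was in 0 of the 7 and in 0.625% of all, while its variant GCGGGGGCG was in the promoter of Fgd4 and in 2.92% of all. The E-box CACGTG and CCGGAAGT, a single form of the ETS site, were in 0 of the 7, and in 7.24% and 4.0% of all promoters. Other forms of the ETS site were not searched for, and the windows of Mtmr2 and Fig4 hold the letters CCGGAAGC when both strands are read. These matches describe the letters of the windows only.

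The phosphoinositide enzymes come first. Mtmr2, on chromosome 9 at 13747260 to 13808896 (GRCm38, as are all positions below), encodes a phosphatase that removes the phosphate at the D3 position of phosphoinositides on endosomes. It was at 47.7 and 44.2 FPKM in sets 0 and 1 of the double, at 51.1 and 43.3 FPKM in HA-NRG1 type III/+, at 61.0 and 53.9 FPKM in Q215X/+ and at 46.7 and 44.4 FPKM in WT. Both Q215X/+ libraries stood above the other 6, as for 2.14% of tested genes, and the other genotypes overlapped. The log2 difference was 0.33 for Q215X/+ against WT (SE 0.115, 95% interval 0.05 to 0.60) and −0.31 for the double against Q215X/+ (SE 0.115), on log2(FPKM + 1) as are all log2 differences here. Neither passed in limma, with Benjamini-Hochberg adjusted p = 1 and 0.657 over all tested genes, or with the set as a replicate block, at 0.319 and 0.0679. The double and WT differed by 0.01, with an interval of −0.26 to 0.29.

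Sex ran with this pattern. The 3 male libraries had 51.1 to 61.0 FPKM of Mtmr2, all above the 43.3 to 47.7 FPKM of the 5 female libraries, which held for 1.06% of tested genes, and 0 members had all males below all females (1.27%). With the set and sex both in the fit, the log2 difference was 0.21 for Q215X/+ against WT and −0.20 for the double against Q215X/+, and with sex alone added it was 0.09 and −0.08. All Q215X/+ libraries were male and all WT and double libraries female, so sex and genotype cannot be told apart in these comparisons. The transgene's effect on the mutant background minus that on the WT background was −0.36 (SE 0.162, adjusted p = 1 in limma, and 0.965 with the block).

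Sbf1 (chromosome 15, 89288236 to 89315311) and Sbf2 (chromosome 7, 110308011 to 110614934) encode MTMR5 and MTMR13, relatives of the myotubularins without phosphatase activity that bind MTMR2. Sbf1 was at 14.6 and 13.5 FPKM in sets 0 and 1 of the double, 15.4 and 14.3 FPKM in HA-NRG1 type III/+, 15.4 and 14.4 FPKM in Q215X/+ and 15.9 and 14.4 FPKM in WT. Sbf2 was at 61.3 and 55.1 FPKM in the double, 60.5 and 57.9 FPKM in HA-NRG1 type III/+, 69.2 and 55.4 FPKM in Q215X/+ and 66.4 and 61.7 FPKM in WT. Every genotype had its lower value in set 1 for both genes, and all genotypes of Sbf1 overlapped. The WT libraries of Sbf2 stood above those of the double and of HA-NRG1 type III/+, with log2 differences of −0.14 (SE 0.127) for the double and −0.11 (SE 0.127) for HA-NRG1 type III/+. For Sbf1 the comparison of the double with WT gave −0.10 (SE 0.0886). None of these passed (limma, adjusted p = 1 for each).

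Fig4 (chromosome 10, 41188172 to 41303241) encodes a phosphoinositide phosphatase that works in a complex with the kinase PIKfyve and the scaffold VAC14 and is required for lysosome function. It was at 10.01 and 9.97 FPKM in sets 0 and 1 of the double, 8.81 and 8.92 FPKM in HA-NRG1 type III/+, 9.44 and 9.81 FPKM in Q215X/+ and 9.38 and 9.22 FPKM in WT. The 4 genotypes did not overlap, with the double highest, then Q215X/+, WT and HA-NRG1 type III/+. The share of tested genes with all 4 genotypes apart was not counted. The double stood above the other 6 libraries, as did 2.14% of tested genes. The differences were small, at 0.09 (SE 0.0675) for the double against WT, 0.05 for the double against Q215X/+, −0.06 for HA-NRG1 type III/+ against WT and 0.04 for Q215X/+ against WT. None passed (limma, adjusted p = 0.998 to 1, and 0.43 to 0.896 with the block).

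**Figure D2:**
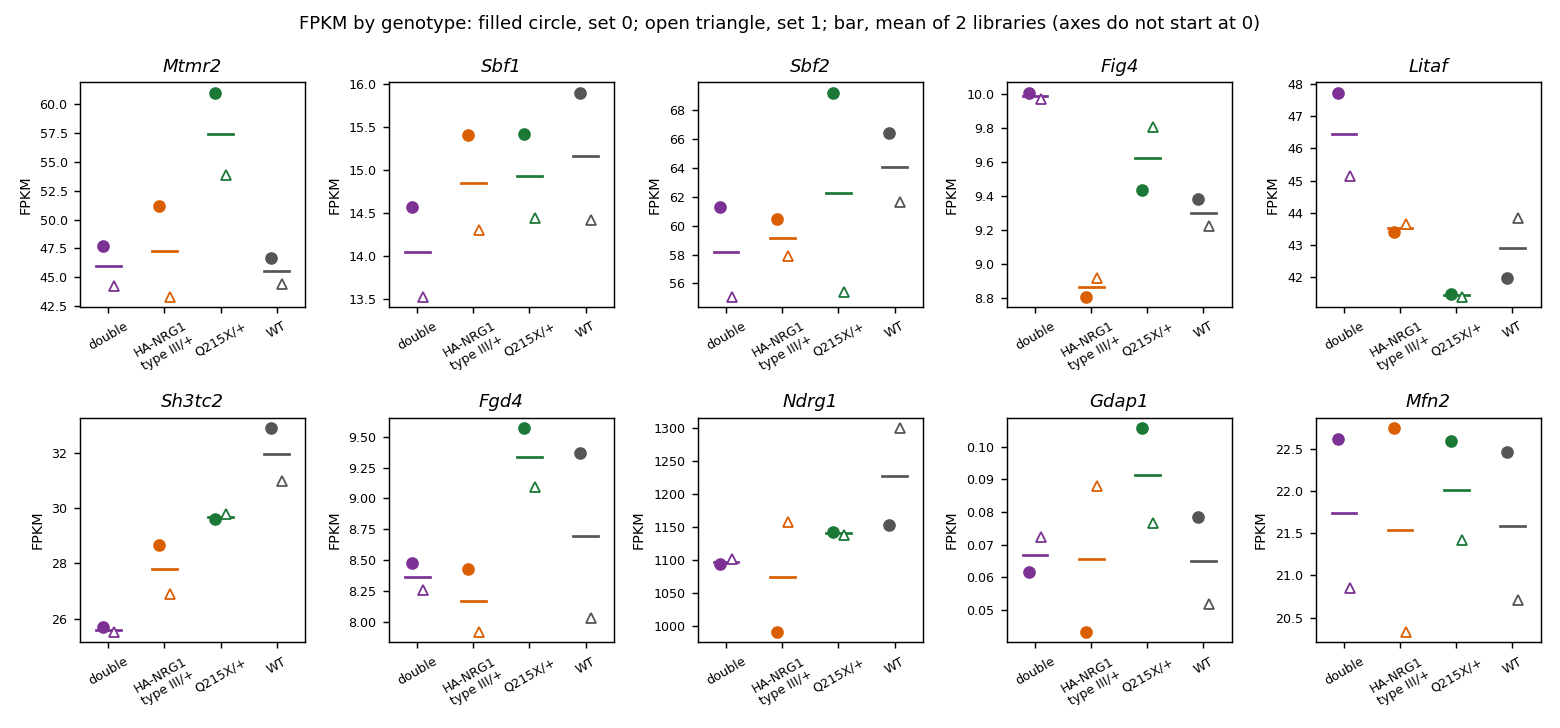
FPKM of each gene by genotype, the double at left and WT at right, 1 panel per gene with its own axis. Points are libraries of set 0 and set 1 and bars the mean of 2, and Sh3tc2 steps up from the double to WT while Mtmr2 stands out in Q215X/+.

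Of the endosome sorting genes, Litaf (chromosome 16, 10959273 to 10993121) encodes a membrane protein of late endosomes that recruits sorting complexes. It was at 47.7 and 45.2 FPKM in sets 0 and 1 of the double, 43.4 and 43.6 FPKM in HA-NRG1 type III/+, 41.5 and 41.4 FPKM in Q215X/+ and 42.0 and 43.8 FPKM in WT. The double stood above the other 6 libraries, as for 2.14% of tested genes, and Q215X/+ below the other 6, as for 2.68%. The log2 difference was 0.16 (SE 0.0764) for the double against Q215X/+ and 0.11 (SE 0.0764) for the double against WT, and neither passed (limma, adjusted p = 0.845 and 0.963, and 0.234 and 0.354 with the block). Litaf shares 95 of its 5156 exonic bases with Snn on the opposite strand, and whether the authors counted by strand is not stated in the labels.

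Macrophages also express Litaf, and the summed level of macrophage markers was higher in the double than in Q215X/+ and WT. Over 11 markers it ran from 368 to 385 FPKM in the double, 331 to 412 FPKM in HA-NRG1 type III/+, 331 to 332 FPKM in Q215X/+ and 312 to 328 FPKM in WT, with none at 0. In the double against Q215X/+, 10 of the 11 were above 0 with a median log2 difference of 0.13, while 53.2% of tested genes were below 0. With the set as a block 3 of the 11 rose, beside 1.72% of tested genes called. The part of macrophages in the level of Litaf was not tested. In whole nerve, more or fewer cells of a type and more or less RNA per cell cannot be told apart.

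Sh3tc2 (chromosome 18, 61952928 to 62015719) encodes a protein of recycling endosomes that binds RAB11 and is made in Schwann cells, where it bears on the traffic of the neuregulin receptor ERBB2. It was at 25.7 and 25.5 FPKM in sets 0 and 1 of the double, 28.7 and 26.9 FPKM in HA-NRG1 type III/+, 29.6 and 29.8 FPKM in Q215X/+ and 32.9 and 31.0 FPKM in WT. No 2 genotypes overlapped, and the order ran upward from the double through HA-NRG1 type III/+ and Q215X/+ to WT. How many tested genes hold all 4 genotypes apart was not counted, so how common such an order is remains unknown. The 4 libraries with the transgene averaged 26.7 ± 1.46 FPKM and the 4 without it 30.8 ± 1.52 FPKM (SD, n = 4 each). Both double libraries stood below the other 6, as for 2.85% of tested genes.

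The log2 difference of Sh3tc2 was −0.31 for the double against WT (SE 0.0764, limma adjusted p = 0.336), which is 0.808-fold. With the set as a replicate block it fell by 0.31 (SE 0.0527, adjusted p = 0.047, 95% interval −0.44 to −0.18), and 1.24% of tested genes fell in that fit. It was −0.19 for HA-NRG1 type III/+ against WT and −0.21 for the double against Q215X/+ (adjusted p = 0.682 and 0.668, and 0.142 and 0.132 with the block). Averaged over both backgrounds the transgene's difference was −0.20 (SE 0.054, adjusted p = 0.198), and with the block it fell by 0.20 (SE 0.0373, adjusted p = 0.0313), where 3.69% of tested genes fell. The transgene's effect differed between the backgrounds by −0.01, with an interval of −0.27 to 0.25. The Q215X/+ and WT libraries differed by −0.10 (SE 0.0764, adjusted p = 1).

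The libraries with and without the transgene did not overlap for Sh3tc2, which was so in this direction for 5.2% of tested genes, and 0 members stood apart in the higher direction (4.88%). An exact two-sided permutation test of 4 libraries against 4 gave p = 0.0286, the smallest that 70 arrangements allow, for 1 of 10 members computed and with no adjustment. Those arrangements set the pairing aside. Exchanging libraries only within their set leaves 36 arrangements, and that exact two-sided permutation test gave p = 0.0556, the smallest they allow. The calls with the block ended without any 1 of the 8 libraries, with the value for the double against WT at −0.33 to −0.28 (adjusted p = 0.0553 to 0.377) and that for the transgene at −0.22 to −0.18 (adjusted p = 0.052 to 0.174). They also ended with a term for sex beside the block, at adjusted p = 0.0886 and 0.117.

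Most Schwann cell markers also lay lower in the double than in WT, though their sum did not follow the transgene as Sh3tc2 did. The 10 markers summed to 36473 to 39556 FPKM in the double, 48553 to 51421 FPKM in HA-NRG1 type III/+, 40417 to 41887 FPKM in Q215X/+ and 50801 to 57011 FPKM in WT. In the double against WT 9 of the 10 were below 0, with a median log2 difference of −0.21, and over both backgrounds 9 of 10 were below 0, with a median of −0.16. Of all tested genes 54.3% and 53.3% were below 0 in these comparisons. With the block, the transgene comparison called falls of 3 markers and a rise of S100b (0.60), beside 7.1% of tested genes called. Among the falls were Sox10 (−0.26), the lineage factor of Schwann cells, and Erbb3 (−0.33), the receptor that binds neuregulin 1. Sox10 was at 163 and 151 FPKM in the double, 158 and 151 FPKM in HA-NRG1 type III/+, 191 and 158 FPKM in Q215X/+ and 207 and 197 FPKM in WT.

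Over both backgrounds, some other marker lists had medians further from 0 than the Schwann cell markers, and others had medians nearer 0. The nearer ones were nerve fibroblasts (0.11), endothelial cells (0.09), pericytes and smooth muscle (0.05), adipocytes (0.04) and perineurial cells (0.002). Of 7 transcripts carried in axons, 6 were below 0 in the same comparison, with a median log2 difference of −0.68. With the block 5 fell, beside 3.69% of tested genes, among them the neurofilament genes Nefl (−0.88), Nefm (−0.68) and Nefh (−1.02), while Uchl1 rose (0.39). The sum of the 7 overlapped between genotypes. It was 70.1 to 83.7 FPKM in the double, 60.2 to 79.0 FPKM in HA-NRG1 type III/+, 67.3 to 70.7 FPKM in Q215X/+ and 64.9 to 95.4 FPKM in WT, with none at 0. All 5 tested red blood cell markers were below 0, with a median of −2.32, and with the block 4 fell (3.69% of tested genes). Over the 6 markers in the table, none at 0, the sum was 73.3 to 178 FPKM in the double, 49.1 to 89.8 FPKM in HA-NRG1 type III/+, 599.6 to 1280.2 FPKM in Q215X/+ and 239 to 244 FPKM in WT, so the libraries with and without the transgene did not overlap. The 8 tested skeletal muscle markers had a median of −2.03 with none called, and 10 of 11 macrophage markers were above 0 with a median of 0.22. Of the 4 tested markers of lymphocytes and mast cells 3 were above 0, with a median of 0.52 and 0 called in either fit. With the block 3 macrophage markers rose and Cd163 fell (−0.54), beside 7.1% of tested genes called. In the double against WT the medians were −0.63 for the axonal and −0.93 for the red blood cell markers. The block called 1 and 0 falls there, beside 1.24% of tested genes. The part of any of these cells or transcripts in the level of Sh3tc2, or in the calls of related genes with the transgene, was not tested.

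Fgd4 (chromosome 16, 16416910 to 16600534) encodes frabin, an exchange factor that activates CDC42 and links it to actin and to endocytic traffic. It was at 8.47 and 8.25 FPKM in sets 0 and 1 of the double, 8.43 and 7.92 FPKM in HA-NRG1 type III/+, 9.57 and 9.09 FPKM in Q215X/+ and 9.37 and 8.03 FPKM in WT. The Q215X/+ libraries stood above those of the double and of HA-NRG1 type III/+, and WT overlapped all the others. The largest difference was −0.14 (SE 0.0916) for the double against Q215X/+, and that over both backgrounds was −0.11 (SE 0.0647), with limma adjusted p = 1 and 0.671.

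Ndrg1 (chromosome 15, 66929318 to 66969641) encodes a protein of the cytoplasm that binds RAB4 on recycling endosomes and is abundant in Schwann cells. It was at 1093 and 1101 FPKM in sets 0 and 1 of the double, 991 and 1157 FPKM in HA-NRG1 type III/+, 1143 and 1138 FPKM in Q215X/+ and 1153 and 1300 FPKM in WT. HA-NRG1 type III/+ and WT were spread as widely as the genotypes differed, and WT stood above the double and Q215X/+. Log2 differences were −0.19 (SE 0.158) for HA-NRG1 type III/+ against WT, −0.16 for the double against WT and −0.10 for Q215X/+ against WT, with limma adjusted p = 1 for each. On the opposite strand the annotated transcripts Gm17035 and Gm2895 share 419 and 137 of its 6596 exonic bases.

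Of the mitochondrial genes, Mfn2 (chromosome 4, 147873586 to 147904909) encodes mitofusin 2, a GTPase of the outer membrane that fuses mitochondria and tethers them to the endoplasmic reticulum. It was at 22.6 and 20.9 FPKM in sets 0 and 1 of the double, 22.7 and 20.3 FPKM in HA-NRG1 type III/+, 22.6 and 21.4 FPKM in Q215X/+ and 22.5 and 20.7 FPKM in WT. All genotypes overlapped, and every genotype was lower in set 1. The 4 pairwise log2 differences lay between −0.02 and 0.03, with 95% intervals within −0.24 to 0.25, and shifts inside those bounds could not be told from 0 with these libraries. Gdap1 (chromosome 1, 17145373 to 17164271) encodes a protein of the outer mitochondrial membrane that is made mainly by neurons, whose cell bodies lie outside the sciatic nerve. It was at 0.0615 and 0.0723 FPKM in the double, 0.0432 and 0.0881 FPKM in HA-NRG1 type III/+, 0.106 and 0.0768 FPKM in Q215X/+ and 0.0785 and 0.0518 FPKM in WT. These levels overlapped between WT and each other genotype, and the depth behind them is unknown.

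**Figure D3:**
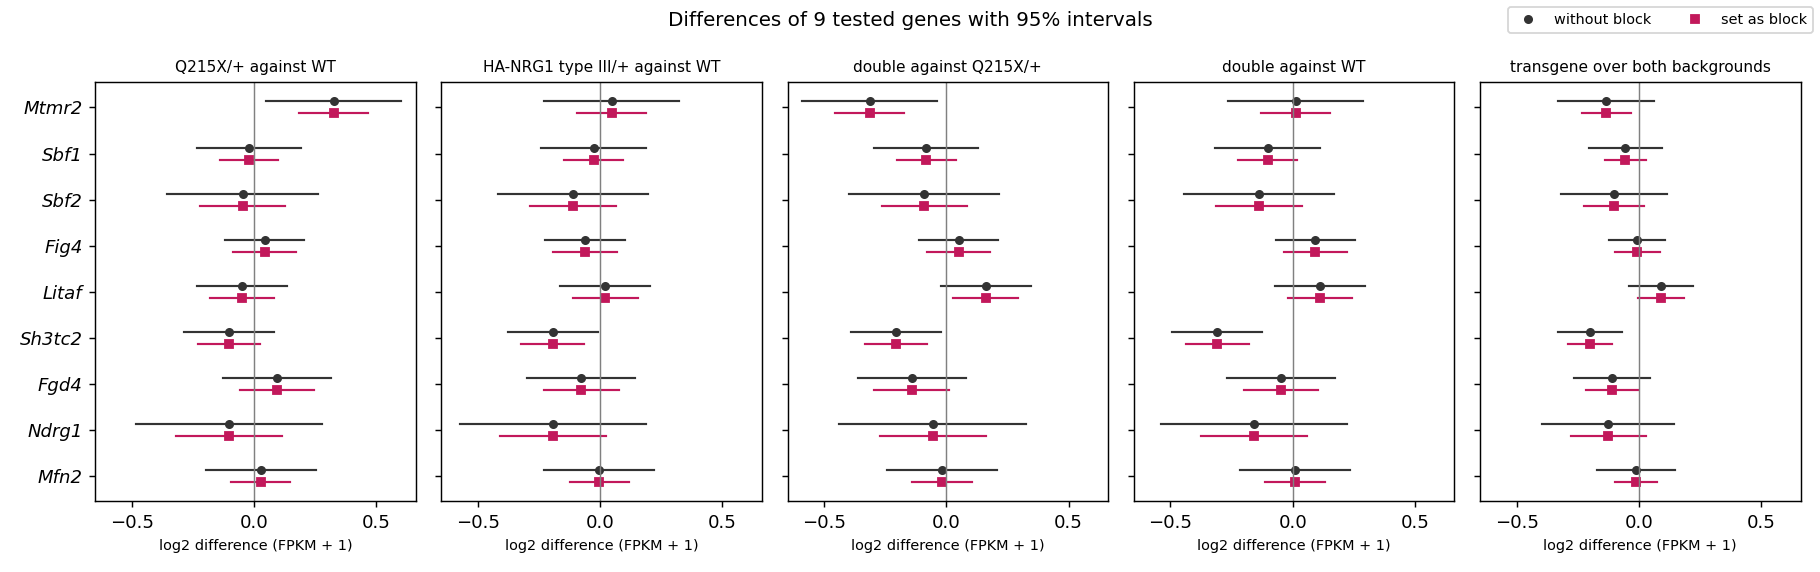
Log2 difference of each tested gene in the comparisons other than the interaction, with its 95% interval from limma, without and with the set as a replicate block. Sh3tc2 lies below 0 against WT in the double, and the intervals of Mfn2 and Fig4 hold 0 throughout.

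Over all 6 comparisons the only member called was Sh3tc2, and only with the block. Without the block limma called 0 of 9 in Q215X/+ against WT (0.00798% of tested genes called), 0 of 9 for HA-NRG1 type III/+ against WT (0.0638%), 0 of 9 in the double against Q215X/+ (0.0399%), 0 of 9 in the double against WT (0.112%), 0 of 9 in the interaction (0.00798%) and 0 of 9 over both backgrounds (0.99%). At an unadjusted limma p under 0.05 the members numbered 1, 1, 2, 1, 0 and 1 in the same order, beside 2.04%, 6.9%, 6.58%, 7.29%, 1.11% and 11.2% of tested genes. These were Mtmr2 in Q215X/+ against WT, Mtmr2 and Sh3tc2 in the double against Q215X/+, and Sh3tc2 in HA-NRG1 type III/+ against WT, in the double against WT and over both backgrounds. With the block, 1 of 9 was called in the double against WT (2.39% of tested genes) and 1 of 9 over both backgrounds (7.1%), both being Sh3tc2, with 1 and 3 members at an unadjusted p under 0.05 (17.9% and 23.3% of tested genes). In the remaining comparisons the block called 0 of 9, beside 0.00798% of tested genes for Q215X/+ against WT, 2.11% for HA-NRG1 type III/+ against WT, 1.72% for the double against Q215X/+ and 0.00798% for the interaction, with 1, 1, 3 and 1 members at an unadjusted p under 0.05 (7.41%, 17.5%, 15.7% and 4.78% of tested genes).

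Members whose libraries did not overlap between 2 genotypes were counted beside the share of all tested genes. In Q215X/+ against WT, 2 members stood higher (Mtmr2 and Fig4, with 8.78% of tested genes higher) and 3 lower (Litaf, Sh3tc2 and Ndrg1, with 10.2% lower). For the transgene on the WT background, 0 stood higher (14.7%) and 3 lower (Sbf2, Fig4 and Sh3tc2, with 15.7%). In the double against Q215X/+, 2 stood higher (Fig4 and Litaf, with 14.6%) and 4 lower (Mtmr2, Sh3tc2, Fgd4 and Ndrg1, with 15.2%). In the double against WT, 2 stood higher (Fig4 and Litaf, with 14.4%) and 3 lower (Sbf2, Sh3tc2 and Ndrg1, with 16.7%). Over both backgrounds 8 of the 9 members had a log2 difference below 0 with a median of −0.10, beside 53.3% of tested genes and a median of −0.01, and Litaf was the exception. The median of the 9 was −0.02 for Q215X/+ against WT, −0.06 for HA-NRG1 type III/+ against WT, −0.08 for the double against Q215X/+ and −0.05 for the double against WT, beside −0.01 over all tested genes in each.

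Part of the members differed between the sets in every genotype. Mtmr2, Sbf1, Sbf2, Fgd4 and Mfn2 were lower in set 1 than in set 0 in 4 of 4 genotypes, as were 21.9% of tested genes. Ndrg1 was lower in set 1 in 1 of 4 genotypes, Fig4 and Litaf in 2, and Sh3tc2 in 3. Over the 36 pairs of tested members, the correlation across the 8 libraries had a median of 0.18 and was above 0 in 22 pairs. It ran from −0.74 for Litaf and Sh3tc2 to 0.80 for Sbf1 and Sbf2, and these libraries share sets, sexes and genotypes.

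**Figure D4:**
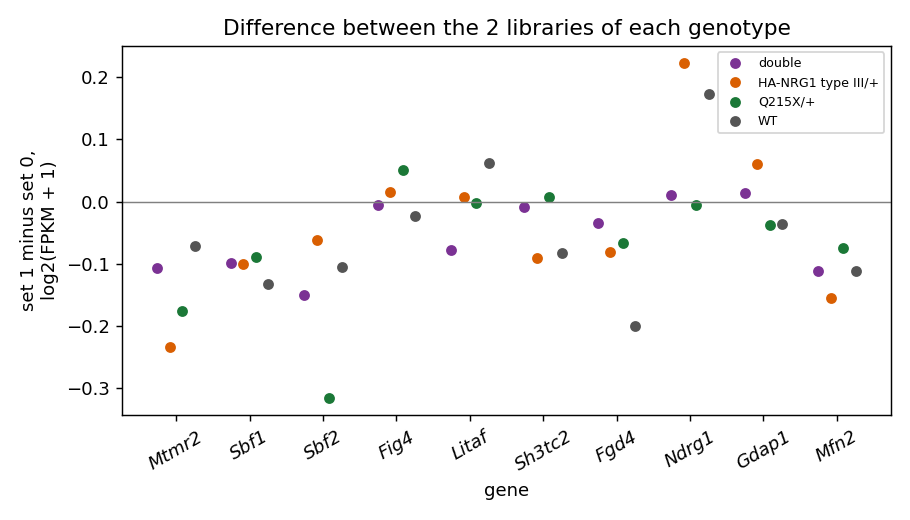
Log2 difference of set 1 minus set 0 within each genotype, 1 point per genotype, for the 9 tested genes and Gdap1. Mtmr2, Sbf1, Sbf2, Fgd4 and Mfn2 lie below 0 in all 4 genotypes, and the points of Fig4, Litaf and Gdap1 lie on both sides of 0.

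For 8 of the tested members the gene with the most similar pattern is given, taken by Pearson's r of log2(FPKM + 1) over the 8 libraries, as a description and without predicted and short RNA genes. Cdk14 was closest to Fig4 (r = 0.918), Lypla2 to Litaf (0.945) and Gpsm1 to Sh3tc2 (0.969), followed there by Efs (0.967). Tbc1d10b was closest to Sbf1 (0.978), Crk to Sbf2 (0.983), Tgfbrap1 to Fgd4 (0.970), Adck2 to Ndrg1 (0.966) and Lrrn2 to Mfn2 (0.995). These are the highest r of each search, and the libraries share sets, sexes and genotypes.

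The related genes of each role were read from lists of pathway members. Of 19 other phosphoinositide enzymes of the endosome, including the other myotubularins, Pikfyve and Vac14, limma called 0 in all 6 comparisons with and without the block. Inpp4a, a phosphatase that acts on the 4 position, had the smallest p in the double against WT, at −0.32 (SE 0.117, adjusted p = 0.599), and was at 9.33 and 9.16 FPKM in the double and 13.3 and 10.4 FPKM in WT. Of 25 tested genes of endosome sorting and recycling, 0 were called in all 6 comparisons in either fit, and their median over both backgrounds was 0.00.

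Of 16 small GTPases of the cytoskeleton, their effectors and exchange factors, the relatives of Fgd4 and CDC42, 0 were called without the block. With it, Arhgef10, an exchange factor of RHOA that is itself a neuropathy gene, fell over both backgrounds by 0.23 (SE 0.0374, limma adjusted p = 0.0211), where 3.69% of tested genes fell. It was at 76.0 and 76.0 FPKM in the double, 73.6 and 78.8 FPKM in HA-NRG1 type III/+, 90.2 and 91.1 FPKM in Q215X/+ and 85.4 and 90.5 FPKM in WT, with no overlap between libraries with and without the transgene, and the call held in 1 of the 8 fits that left out a library (adjusted p = 0.0456 to 0.139). Of the 3 relatives of Ndrg1, Ndrg2 fell with the block in HA-NRG1 type III/+ against WT by 0.59 (SE 0.094, limma adjusted p = 0.0435), beside 2.11% of tested genes called. Over both backgrounds it fell by 0.48 (SE 0.0665, limma adjusted p = 0.013), where 3.69% of tested genes fell. Its libraries with the transgene were at 57.9 to 86.7 FPKM and those without at 91.2 to 114 FPKM. Such a lack of overlap in this direction, also that of Arhgef10, was found for 5.2% of tested genes. Ndrg2 was not called without the block (limma adjusted p = 0.505 and 0.216). Its calls with the block held in 2 and 3 of the 8 fits that left out a library.

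Of 20 tested genes of mitochondrial fusion, fission and transport, Trak2, the adaptor that ties mitochondria to motor proteins, fell over both backgrounds by 0.42 (SE 0.0648, limma adjusted p = 0.0499, and 0.00976 with the block), beside 0.99% and 7.1% of tested genes called. It was at 28.0 and 27.4 FPKM in the double, 25.8 and 27.7 FPKM in HA-NRG1 type III/+, 37.6 and 35.6 FPKM in Q215X/+ and 34.6 and 39.2 FPKM in WT. Leaving out any 1 library ended the call without the block (adjusted p = 0.0888 to 0.221), and the call with it held in 6 of 8 such fits. The other 19, among them Mfn1 and Opa1, were not called over both backgrounds in either fit. In the list of 15 myelin genes, 2 were called over both backgrounds without the block (0.99% of tested genes), with Cnp at −0.87 and Pmp2 at 0.95 (limma adjusted p = 0.0332 and 0.0467). With the block 1 of the 15 rose and 5 fell (7.1% of tested genes called), with adjusted p = 0.00119 for Cnp and 0.00591 for Pmp2. Leaving out any 1 library ended both calls without the block (adjusted p = 0.0834 to 0.161 for Cnp and 0.115 to 0.232 for Pmp2). With the block the call of Cnp held in 8 of 8 such fits (adjusted p = 0.00406 to 0.0233) and that of Pmp2 in 7 of 8 (0.0117 to 0.0502).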

How the data were processed

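RNA of sciatic nerve was read from 1 deposited table of FPKM values, computed by the authors, with 1 column per library. TopHat2 2.0.9, Cufflinks 2.2.0 and mm10 are named in the submitters' processing notes, and their roles, the annotation and strand handling are not stated there. Each line holds an empty field that the header lacks, so column names were matched to values by position. Name stems gave the genotypes, that of HA-NRG1 type III/+ by elimination. Total FPKM per library ran from 443733 to 530901, and the depth is unknown.

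limma 3.58.1 in R 4.3.3 was fitted to log2(FPKM + 1) of the 12530 genes averaging 1 FPKM or more, with 4 group means, an eBayes trend, Benjamini-Hochberg adjustment over all of them and calls under 0.05. The interaction is the transgene's effect in the mutant minus that in WT. Differences of set 1 minus set 0 correlated between genotypes at 0.118 to 0.304 over 6 pairs, so the sets were treated as pairs, which rests on the data alone since the labels do not explain the column endings. Alternatives were the set as a replicate block, a term for sex, both, a pseudocount of 0.1, no filter, rescaling by the median ratio, and each library left out. The members, gene lists and tests were chosen with earlier results of these data known. The rule for named genes took the members, the genes targeted in these mice, the called genes of each list or those with the smallest p, and the genes closest to each member. Of these only part is printed, some are not reported here, and the promoters shown and the marker values beside members were chosen after their values were seen. Positions come from GRCm38, exon overlaps from GENCODE and promoters from RefSeq (GRCm38.p6).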

Additional observations from a re-analysis of the deposited data

Results flagged for a closer look

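The transgene's log2 difference for Fig4 had opposite signs on the 2 backgrounds, which the test of the interaction did not resolve. The double stood above Q215X/+ in both sets, and HA-NRG1 type III/+ stood below WT in both sets. The difference between the effects was 0.11 on the log2 scale (SE 0.0955), and limma's test of that interaction gave an adjusted p of 1 and an unadjusted p of 0.281.

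The mutation's log2 difference for Litaf also had opposite signs with and without the transgene, again not resolved by that test. The double stood above HA-NRG1 type III/+ in both sets, and Q215X/+ stood below WT in both sets. The difference between the effects was 0.14 (SE 0.108), with an adjusted p of 1 and an unadjusted p of 0.24 in limma. Neither gene was called in any comparison.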

How the results depend on the processing

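Treating the sets as pairs, with the set as a replicate block, raised the members called from 0 to 1 in the double against WT and from 0 to 1 for the transgene over both backgrounds, both through Sh3tc2, and changed no other member's call. No other alternative called a member, and leaving out each library without the block gave 0 to 0 members called in each comparison. With the block and each library left out, an alternative chosen after seeing the data, the count was 0 in each comparison. Of 804 recomputed differences of single members, 739 kept their direction and 65 changed it with no call on either side. Among the 376 whose difference was at least 0.1, 4 changed direction, all of Ndrg1 with a term for sex: 0.12 and, with the block, 0.06 for Q215X/+ against WT, and −0.20 and −0.11 for the interaction. The cause was not tested.

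Over all genes the block raised the calls to 265 from 8 in HA-NRG1 type III/+ against WT, to 216 from 5 in the double against Q215X/+, to 299 from 14 in the double against WT and to 890 from 124 over both backgrounds. Over all alternatives, those with the block and a library left out included, the counts ran from 1 to 24 in Q215X/+ against WT, 0 to 298 in HA-NRG1 type III/+ against WT, 2 to 216 in the double against Q215X/+, 5 to 299 in the double against WT, 1 to 12 for the interaction and 12 to 890 over both backgrounds. With 2 libraries per genotype and unknown depth, small differences and the level of Gdap1 are not resolved.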
